A study of Mus musculus with 8 samples.

Results

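Chromatin accessibility was described for 104 regions at 6 genes that encode the classical transcription factors of the epithelial to mesenchymal transition: Snai1, Snai2, Twist1, Twist2, Zeb1 and Zeb2. A region was taken as a member when its midpoint lay inside 1 of these genes or within 100 kb of it, with that gene as the nearest protein-coding gene span in mm10. The 104 regions came from 168842 in all, with 13 at Snai1, 4 at Snai2, 4 at Twist1, 24 at Twist2, 20 at Zeb1 and 39 at Zeb2, and each was 401 bp wide. The farthest member lay 88128 bp from its gene, at Twist2, and the nearest region beyond the limit lay 101579 bp from Zeb1.

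The libraries came from day 4 embryoid bodies, clusters in which mouse embryonic stem cells differentiate. They were made by ATAC-seq, which maps open chromatin by where the Tn5 transposase can insert, from cells sorted on the surface receptors PDGFRalpha and FLK1 (the product of Kdr). There were 4 groups of 2 libraries. OE SP was PDGFRalpha-FLK1+ (single positive) cells of the line iETV2, made to overexpress Etv2 with doxycycline at 2 µg/ml from day 2.5. KO DP was PDGFRalpha+FLK1+ (double positive) cells of an Etv2 knockout line. WT SP and WT DP were single positive and double positive cells of the wild-type line A2lox.Cre, with no doxycycline given in their labels. All lines had been kept on irradiated mouse embryonic fibroblasts and then grown without them before differentiation. Each group came from 1 line, so Etv2 status, line and doxycycline cannot be told apart in the OE and KO comparisons. Separate cultures are not stated for the replicates of a group, so the p-values rest on a spread that may be technical.

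During gastrulation, cells of the epiblast lose E-cadherin and cell junctions and leave the epithelium as mesoderm. SNAI1 and SNAI2 are zinc finger repressors that bind E-box sequences in epithelial genes such as Cdh1, and Snai1 is needed for this step in the mouse embryo. TWIST1 and TWIST2 are basic helix-loop-helix factors of mesoderm and mesenchyme, and ZEB1 and ZEB2 are zinc finger and homeodomain repressors. ETV2 is an ETS family factor required for blood and endothelial progenitors, which arise from FLK1+ mesoderm. Accessibility marks where proteins can reach the DNA; it does not measure transcription of the gene.

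The RefSeq promoter table (GRCm38.p6) held 4 of the 6 genes: Snai1, Twist1, Twist2 and Zeb2. The 250 bases before the start of Snai1, Twist1 and Twist2 lay wholly inside a measured region, and these 3 are shown because they are the promoter sequence behind the values given below. All 3 are on the plus strand, at chr2:167537945-167538194 for Snai1, chr12:33957421-33957670 for Twist1 and chr1:91801211-91801460 for Twist2. Capitals mark the only match found to the motifs searched.
Snai1: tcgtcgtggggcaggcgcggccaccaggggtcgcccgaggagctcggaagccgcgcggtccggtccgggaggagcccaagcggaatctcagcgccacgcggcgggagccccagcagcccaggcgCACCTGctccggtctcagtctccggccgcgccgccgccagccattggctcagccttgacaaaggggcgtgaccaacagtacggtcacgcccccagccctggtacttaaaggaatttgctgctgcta
Twist1: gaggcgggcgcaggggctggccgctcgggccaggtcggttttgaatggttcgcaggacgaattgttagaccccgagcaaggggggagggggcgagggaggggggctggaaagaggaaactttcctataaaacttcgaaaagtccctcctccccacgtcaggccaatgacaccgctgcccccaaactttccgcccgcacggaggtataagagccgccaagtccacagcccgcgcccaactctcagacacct
Twist2: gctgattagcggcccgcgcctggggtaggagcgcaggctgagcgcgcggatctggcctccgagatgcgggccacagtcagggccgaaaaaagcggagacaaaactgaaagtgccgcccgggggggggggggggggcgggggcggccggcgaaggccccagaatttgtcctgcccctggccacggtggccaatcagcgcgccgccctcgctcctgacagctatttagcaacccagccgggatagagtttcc
The E-box that SNAI and ZEB factors bind was searched as CAGGTG. The core of ETS factors was searched as CCGGAA. The site of GATA factors was searched as AGATAA, and all 3 were read on both strands. Snai1 held 1 CAGGTG, on the minus strand and therefore printed as CACCTG, and no other match was found in these 3 windows or in the 4 start windows of Zeb2. Of 32851 mouse promoter windows of this length, 17.2% held CAGGTG, 12.03% CCGGAA and 9.99% AGATAA. G and C made up 70% of the Snai1 window, 62.4% of the Twist1 window and 68.8% of the Twist2 window.

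The deposited values are normalized reads per region. The libraries held 12477601 to 18853733 reads in regions, with a median of 27 to 42 reads per region. The OE SP replicates stood apart: the chi-square per degree of freedom between replicates was 4.68 for OE SP, against 1.23 for KO DP, 1.22 for WT SP and 1.15 for WT DP. OE SP replicate 1 was below replicate 2 in 80 of the 104 regions (76.9%) and in 66.0% of all regions, so OE SP values are given per library and results without each library are given where they differ. The labels were first checked at Etv2, where a region inside the gene (chr7:30634628-30635028) had 425 and 645 normalized reads in OE SP, 0.840 and 0 in KO DP, 475 and 493 in WT SP, against 563 and 611 in WT DP. The KO DP libraries had next to no signal there, and the OE SP libraries overlapped WT SP; accessibility at the gene does not measure how much Etv2 was made. The sort markers had signal in every library, with sums of 3990 and 5417 at Kdr in OE SP, 4295 and 4280 in KO DP, 3637 and 3677 in WT SP, and 3715 and 3849 in WT DP, and 1244 and 1587 at Pdgfra in OE SP, 2369 and 2145 in KO DP, 1704 and 1604 in WT SP, and 2179 and 2327 in WT DP. Of the 5 endothelial marker genes Pecam1, Cdh5, Tek, Tie1 and Emcn, all had regions, and their summed signal was 7077 to 10503 in OE SP, 3419 to 3457 in KO DP, 4687 to 4850 in WT SP and 3958 to 4098 in WT DP. Of the 3 paraxial mesoderm markers Tbx6, Msgn1 and Meox1, all had regions, with sums of 1422 to 2017 in OE SP, 2396 to 2538 in KO DP, 2447 to 2483 in WT SP and 2713 to 2869 in WT DP. Less signal may come from fewer cells of a type or from less accessibility per cell, and these cannot be told apart in sorted bulk samples.

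Summed over its regions and set per kb of region, accessibility was highest at Snai1 in each group, and lowest at Twist2 in OE SP and at Zeb1 in the other 3 groups. The sum for Snai1 was 351 and 498 normalized reads per kb in OE SP, 786 and 691 in KO DP, 620 and 573 in WT SP, and 756 and 710 in WT DP. Both OE SP libraries were the lowest of the 8, and the KO DP and WT DP libraries overlapped. Twist2 had 75.9 and 131 normalized reads per kb in OE SP, 163 and 167 in KO DP, 219 and 214 in WT SP, and 168 and 177 in WT DP. Its OE SP libraries were the lowest and its WT SP libraries the highest, with no overlap. Zeb1 had 174 and 213 normalized reads per kb in OE SP, 126 and 112 in KO DP, 163 and 156 in WT SP, and 141 and 138 in WT DP. Here the order was turned, with both OE SP libraries the highest and both KO DP libraries the lowest. Zeb2 had 157 and 183 normalized reads per kb in OE SP, 200 and 209 in KO DP, 188 and 197 in WT SP, and 168 and 183 in WT DP, with OE SP below WT SP and overlapping WT DP. Snai2 ran from 266 to 397 over the 8 libraries and Twist1 from 325 to 365, and for both OE SP overlapped WT SP.

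**Figure D1:**
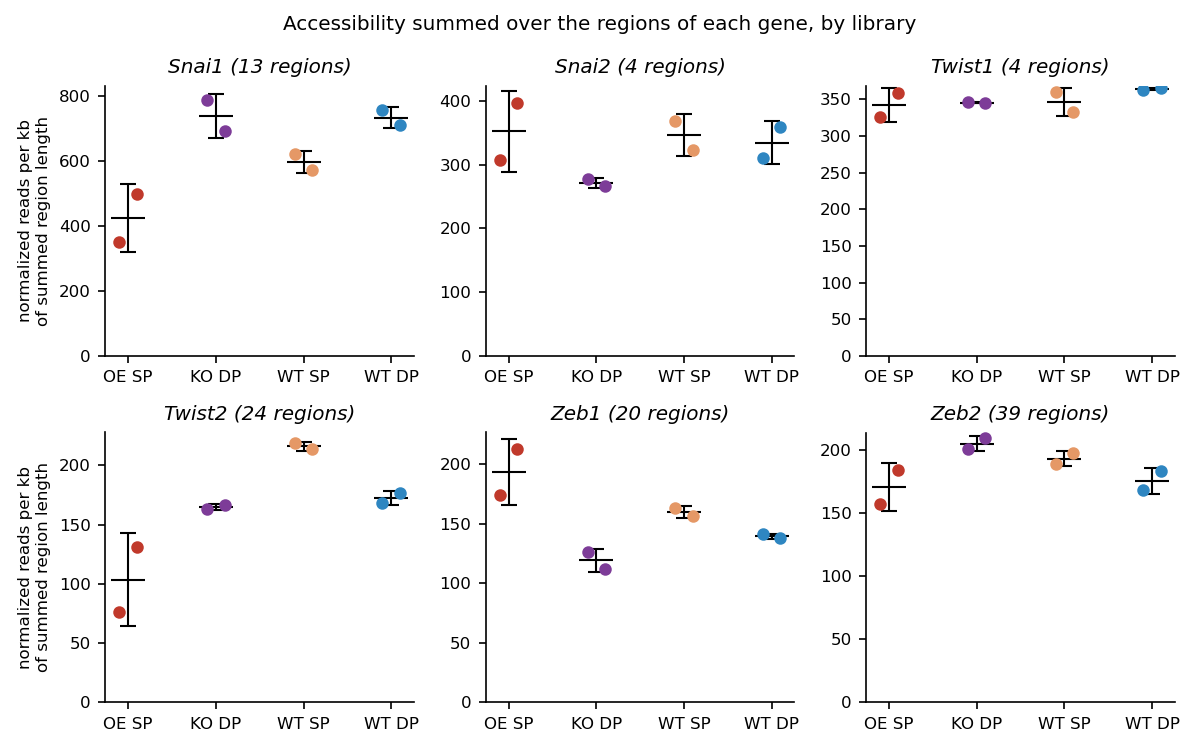
Normalized reads summed over the regions of each gene and divided by their summed length in kb, in each of the 8 libraries (points), with the mean and SD of each group of 2 (bars). The OE SP libraries are the lowest at Snai1 (351 and 498) and Twist2 (75.9 and 131) and the highest at Zeb1 (174 and 213).

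The gene sums were tested with limma on log2(sum + 5) over 18534 genes, with Benjamini-Hochberg adjustment over these genes. Between OE SP and WT SP, where 24.4% of all genes were called lower and 9.43% higher, Twist2 fell by 1.11 on the log2 scale (SE 0.18, adjusted p = 0.000118) and Snai1 fell by 0.51 (SE 0.17, adjusted p = 0.0248). The median change of all gene sums in this comparison was -0.14. Twist2 was called under every setting tried, with changes of -1.50 to -0.72. Snai1 lost its call under median-of-ratios scaling (log2 change -0.27, adjusted p = 0.0545), with the 2 compared groups alone (adjusted p = 0.118), and without either WT SP library (adjusted p = 0.206 without replicate 1 and 0.0971 without replicate 2). Zeb1 had a log2 change of 0.27 (SE 0.13, adjusted p = 0.129), and was called higher under median-of-ratios scaling (0.51), scaling on the 10000 highest regions (0.47), edgeR (0.41) and without OE SP replicate 1 (0.41). Zeb2 had a change of -0.18 (adjusted p = 0.354), called lower without OE SP replicate 2 (-0.30). Snai2 (0.02) and Twist1 (-0.02) were not called, and Twist1 was called higher by 0.22 under median-of-ratios scaling.

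Neither of the other comparisons gave a called gene sum. Between WT SP and WT DP, where 4.52% of genes were called higher and 2.94% lower, the changes ran from -0.30 for Snai1 (adjusted p = 0.234) to 0.33 for Twist2 (adjusted p = 0.226). The Snai1 sum was called lower in WT SP under median-of-ratios scaling (-0.39), scaling on the 10000 highest regions (-0.52), by edgeR (-0.46) and with the compared groups alone, and the Twist1 sum under the second scaling (-0.29) and by edgeR (-0.24). With the compared groups alone, the Twist2, Zeb1 and Zeb2 sums were called higher. Between KO DP and WT DP, where 2.08% were called higher and 5.27% lower, they ran from -0.30 for Snai2 (adjusted p = 0.218) to 0.22 for Zeb2 (adjusted p = 0.393). The Zeb2 sum was called higher in KO DP under median-of-ratios scaling (0.29), scaling on the 10000 highest regions (0.30), by edgeR (0.31) and with the compared groups alone, where the Snai2 and Zeb1 sums were called lower.

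Single regions were tested with limma on log2(normalized reads + 5) over 167573 regions, and called at an adjusted p below 0.05 over all of them. Of the 104 members, 102 passed the filter of a mean of at least 10 normalized reads over the 8 libraries. The 2 that did not are at Zeb1: chr18:5520521-5520921 had 21.9 and 21.0 normalized reads in OE SP and 1.94 to 5.95 in the other libraries, and chr18:5690532-5690932 had 21.2 and 26.3 in OE SP and 1.80 to 8.14 elsewhere. The filter mean includes OE SP, so a region low in the other groups could pass through OE SP alone. An F test over the 4 groups called 73 of the 102, against 65.4% of all regions.

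Between OE SP and WT SP, 17 of the 102 member regions were called higher and 41 lower, where 16.6% of all regions were called higher and 31.9% lower. The share called higher (16.7%) was near that of all regions, and the share called lower was 40.2%. The median log2 change was -0.43 over the members and -0.22 over all regions tested. By edgeR, with TMM scaling, 20 members were called higher and 33 lower, against 24.5% and 24.7% of all regions, and the medians were -0.25 over the members and 0.02 over all regions. The genes differed in their makeup: Snai1 had 0 regions called higher and 7 lower of 13, Twist2 had 0 and 14 of 24, Zeb1 had 7 and 5 of 18, and Zeb2 had 8 and 12 of 39. For Snai1 and Twist2, limma at an unadjusted p below 0.05 gave 0 and 1 higher regions, and edgeR called 0 and 1 higher. Snai2 had 1 region called higher and 1 lower of 4, and Twist1 had 1 and 2 of 4. Of the 41 lower regions, 19 were called lower under every setting that included them (3 at Snai1, 1 at Snai2, 7 at Twist2 and 8 at Zeb2). Of the 17 higher regions, 11 were called higher under every setting that included them (6 at Zeb1 and 5 at Zeb2). Settings limited to regions of higher mean or nearer the gene left some of these regions out, so their calls were not tried there. Of the 6 rises at Zeb1 called under every setting that included them, 4 passed the filter only through OE SP, as described below. A call at these 4 could only be a rise, so they are no support for a rise. The 7 higher regions at Zeb1 hold the same 4, and the 8 at Zeb2 hold a region that also passed only through OE SP. When each of the 4 libraries was left out in turn, the median log2 change over the members ran from -0.56 to -0.31. Over all regions it ran from -0.29 to -0.15. The first value of each pair was without OE SP replicate 2 and the second without OE SP replicate 1.

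**Figure D2:**
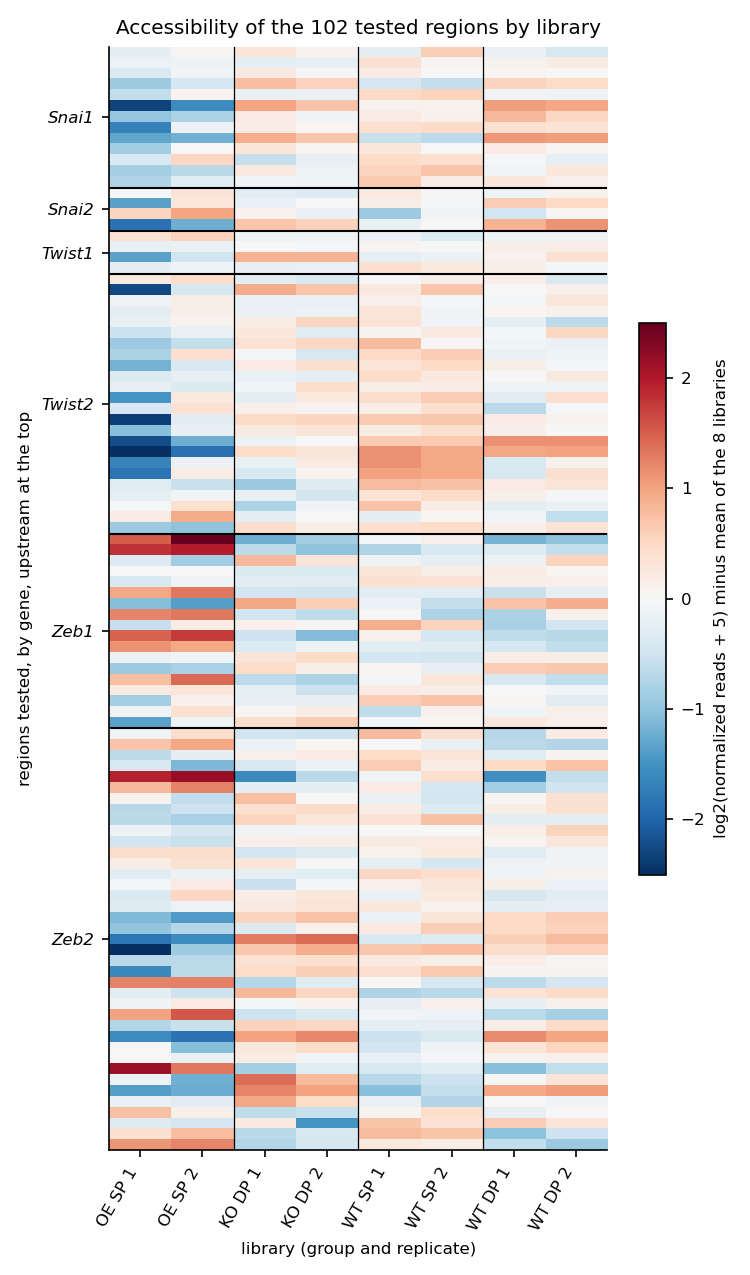
log2(normalized reads + 5) of the 102 tested regions (rows, by gene and from upstream to downstream; for Snai2 and Zeb1, by rising coordinate) in the 8 libraries (columns), each row as the difference from its own mean over the 8 libraries. Blue runs in the OE SP columns lie at Snai1 and Twist2, while at Zeb1 and Zeb2 red and blue rows alternate within the same gene.

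At Twist2, a factor of mesenchyme and connective tissue, the fall of lowest adjusted p lay inside the gene. The region 29.5 kb from the start (chr1:91830797-91831197) had 8.02 and 23.6 normalized reads in OE SP, 139 and 124 in KO DP, 225 and 196 in WT SP, and 197 and 203 in WT DP. Both OE SP libraries were far below the other 6, and the log2 change from WT SP was -3.48 (SE 0.29, adjusted p = 7.2e-06), with -4.05 to -2.91 when 1 library of the pair was left out. The neighbouring region at 25.7 kb (chr1:91826935-91827335) had 8.75 and 22.3 in OE SP, 52.9 and 58.2 in KO DP, 94.7 and 95.2 in WT SP, and 135 and 135 in WT DP. The 4 groups stood in this order with no overlap, and OE SP fell by 2.37 on the log2 scale from WT SP (SE 0.28, adjusted p = 4.38e-05). The region of highest mean at Twist2, 22.1 kb from the start (chr1:91823397-91823797), had 58.4 and 264 in OE SP, 449 and 467 in KO DP, 506 and 513 in WT SP, and 372 and 339 in WT DP. Its OE SP replicates differed widely from each other, but both were below the other 6 libraries; the log2 change was -1.98 (SE 0.45, adjusted p = 0.00316), and it was -0.93 without OE SP replicate 1 and -3.02 without OE SP replicate 2.

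Twist2 was also lower in OE SP outside the gene. At 59.0 kb (chr1:91860276-91860676), the region had 2.19 and 15.8 normalized reads in OE SP, 15.1 and 21.4 in KO DP, 45.8 and 39.7 in WT SP, and 12.6 and 19.8 in WT DP, a log2 change from WT SP of -1.96 (SE 0.41, adjusted p = 0.002) that was -1.20 without OE SP replicate 1 and -2.73 without replicate 2. Here WT SP stood above all other groups, and OE SP overlapped WT DP. The region at 79.8 kb (chr1:91881092-91881492) had 8.75 and 7.88 in OE SP, 30.2 and 23.8 in KO DP, 29.5 and 30.7 in WT SP, and 23.3 and 27.8 in WT DP, a log2 change of -1.40 (SE 0.24, adjusted p = 0.00059). The promoter region (chr1:91801179-91801579), whose sequence is printed above, had 182 and 200 in OE SP, 207 and 196 in KO DP, 320 and 276 in WT SP, and 234 and 273 in WT DP. OE SP was below WT SP by 0.62 on the log2 scale (SE 0.17, adjusted p = 0.00798) and overlapped KO DP, and the call was lost without WT SP replicate 1 (adjusted p = 0.0921).

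At Snai1, needed for gastrulation in the mouse, the called falls in OE SP lay downstream of the gene. Its promoter region was not called in the fit over all 8 libraries. The promoter region (chr2:167537920-167538320) had 661 and 816 normalized reads in OE SP, 994 and 837 in KO DP, 981 and 865 in WT SP, and 883 and 851 in WT DP, and the change in OE SP was not called (log2 -0.33, SE 0.16, adjusted p = 0.103). OE SP was the lowest group there, without overlap, by less than the fit over all 8 libraries could call. The log2 change from WT SP ran from -0.48 to -0.17 when 1 library of the pair was left out. At 20.6 kb from the start (chr2:167558582-167558982) the values were 21.9 and 39.4 in OE SP, 259 and 214 in KO DP, 136 and 137 in WT SP, and 268 and 254 in WT DP. OE SP fell by 2.03 on the log2 scale from WT SP (SE 0.23, adjusted p = 3.31e-05), and WT SP itself fell by 0.91 from WT DP (SE 0.23, adjusted p = 0.0206). The second call was lost when any 1 of its 4 libraries was left out, and both use the WT SP libraries. Smaller falls in OE SP from WT SP were at 21.4 kb (log2 -1.03, adjusted p = 0.00092), 33.7 kb (-1.37, adjusted p = 0.000821) and 36.8 kb (-0.95, adjusted p = 0.00549), the last lost without WT SP replicate 1 (adjusted p = 0.0775).

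Zeb1 and Zeb2 had regions called in both directions by limma, but of the 5 falls at Zeb1, 0 were called under every setting that included them. By edgeR, Zeb1 had 8 regions called higher and 2 lower, and Zeb2 had 9 and 12. Near Zeb1, a repressor of epithelial genes, the region 54.3 kb before the lower-coordinate gene end (chr18:5536785-5537185) had 54.7 and 61.8 normalized reads in OE SP, 5.88 and 3.57 in KO DP, 5.09 and 7.93 in WT SP, and 8.74 and 6.29 in WT DP. It had under 10 normalized reads in each library of the other 3 groups and rose by 2.47 on the log2 scale in OE SP from WT SP (SE 0.28, adjusted p = 3.69e-05). The region 57.7 kb before that end (chr18:5533421-5533821) had 39.4 and 93.3 in OE SP, 1.68 and 3.57 in KO DP, 10.2 and 11.9 in WT SP, and 1.94 and 2.69 in WT DP, a log2 change of 2.04 (SE 0.36, adjusted p = 0.000616). This region and the one at 54.3 kb passed the filter only through OE SP, as did called ones at 89.0 and 149.3 kb inside Zeb1. At these regions a call between OE SP and WT SP could only be a rise. Inside Zeb1, at 120.7 kb (chr18:5711840-5712240), the values were 172 and 209 in OE SP, 39.5 and 25.0 in KO DP, 64.1 and 41.6 in WT SP, and 35.9 and 34.1 in WT DP. OE SP was above all other libraries, by 1.78 on the log2 scale from WT SP (SE 0.26, adjusted p = 0.000167). A further rise inside the gene, at 18.9 kb (chr18:5610006-5610406), came from 67.8 and 88.0 in OE SP against 25.4 and 25.8 in WT SP (log2 1.43, SE 0.23, adjusted p = 0.000404). The region of highest mean, 228.5 kb from the same end (chr18:5819653-5820053), had 514 and 551 in OE SP, 380 and 307 in KO DP, 516 and 495 in WT SP, and 441 and 427 in WT DP, and was called in none of the 3 comparisons. The region at the gene end itself (chr18:5591576-5591976) was not called either, with 117 and 117 in OE SP and 146 and 130 in WT SP.

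At Zeb2, which is required for neural crest and is also active in blood development, the region of highest mean lay 50.1 kb inside the gene (chr2:45067124-45067524). It had 104 and 208 normalized reads in OE SP, 455 and 500 in KO DP, 433 and 522 in WT SP, and 345 and 344 in WT DP, with a log2 change in OE SP from WT SP of -1.66 (SE 0.25, adjusted p = 0.000228). At 26.3 kb (chr2:45090980-45091380), a region named after its values were seen, OE SP had 19.0 and 108, against 327 and 348 in WT SP, a change of -2.72 (SE 0.48, adjusted p = 0.000658) that was -1.60 without OE SP replicate 1 and -3.84 without OE SP replicate 2. Other regions of the same gene rose: the one at 97.4 kb (chr2:45019862-45020262) had 120 and 65.7 in OE SP, 10.9 and 17.8 in KO DP, 16.3 and 17.8 in WT SP, and 8.74 and 13.5 in WT DP, a log2 change of 2.09 (SE 0.31, adjusted p = 0.000219). The region at 72.4 kb (chr2:45044838-45045238) had 214 and 314 in OE SP, 70.5 and 79.6 in KO DP, 98.7 and 95.2 in WT SP, and 63.1 and 55.7 in WT DP, a log2 change of 1.37 (SE 0.21, adjusted p = 0.00024). In both, the OE SP libraries were above the other 6. The region at 154.1 kb (chr2:44963148-44963548), also called higher (log2 0.96, SE 0.27, adjusted p = 0.0102), passed the filter only through OE SP. It had 33.6 and 36.8 in OE SP and 4.49 to 16.3 in the other libraries. Of the 2 regions that overlap a RefSeq promoter window of Zeb2, which runs from 250 bases before to 50 after an annotated start, the one at 7.4 kb (chr2:45109846-45110246) had 139 and 152 in OE SP and 243 and 226 in WT SP and fell by 0.67 (SE 0.17, adjusted p = 0.00535), a call lost without WT SP replicate 1 (adjusted p = 0.0553). The one at 4.3 kb was not called (log2 0.28, adjusted p = 0.264).

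Snai2 and Twist1 had few regions. The region at the lower-coordinate end of Snai2 (chr16:14705621-14706021) had 468 and 583 normalized reads in OE SP, 390 and 376 in KO DP, 559 and 477 in WT SP, and 433 and 500 in WT DP, and was not called in any comparison. At 8.0 kb from that end (chr16:14713634-14714034) the values were 0.729 and 3.94 in OE SP, 28.5 and 26.1 in KO DP, 13.2 and 15.9 in WT SP, and 33.0 and 40.4 in WT DP, and OE SP fell from WT SP by 1.45 on the log2 scale (SE 0.28, adjusted p = 0.0013). The region at 6.6 kb was called higher in OE SP (log2 1.27, SE 0.33, adjusted p = 0.0076), with 22.6 and 32.8 in OE SP against 5.09 and 12.9 in WT SP, a call lost without WT SP replicate 1 (adjusted p = 0.0956). The Twist1 promoter region (chr12:33957411-33957811) had 231 and 235 in OE SP, 264 and 260 in KO DP, 278 and 263 in WT SP, and 292 and 299 in WT DP, and was not called in any comparison. Just before it, at 1.6 kb before the start (chr12:33955886-33956286), OE SP had 192 and 218, against 130 and 114 in WT SP, a rise of 0.72 on the log2 scale (SE 0.17, adjusted p = 0.00392) that missed the threshold without WT SP replicate 2 (adjusted p = 0.0512). The 2 lower regions of Twist1, at 6.9 kb (log2 -0.74, adjusted p = 0.0434) and 9.7 kb (-0.49, adjusted p = 0.0374), lost their calls without either WT SP library, the first also without OE SP replicate 1 (highest adjusted p = 0.302 and 0.203). Without OE SP replicate 1 the change at 6.9 kb was -0.31, and without OE SP replicate 2 it was -1.16. By edgeR, Twist1 had 0 regions called lower in OE SP from WT SP, so neither fall was called there.

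**Figure D3:**
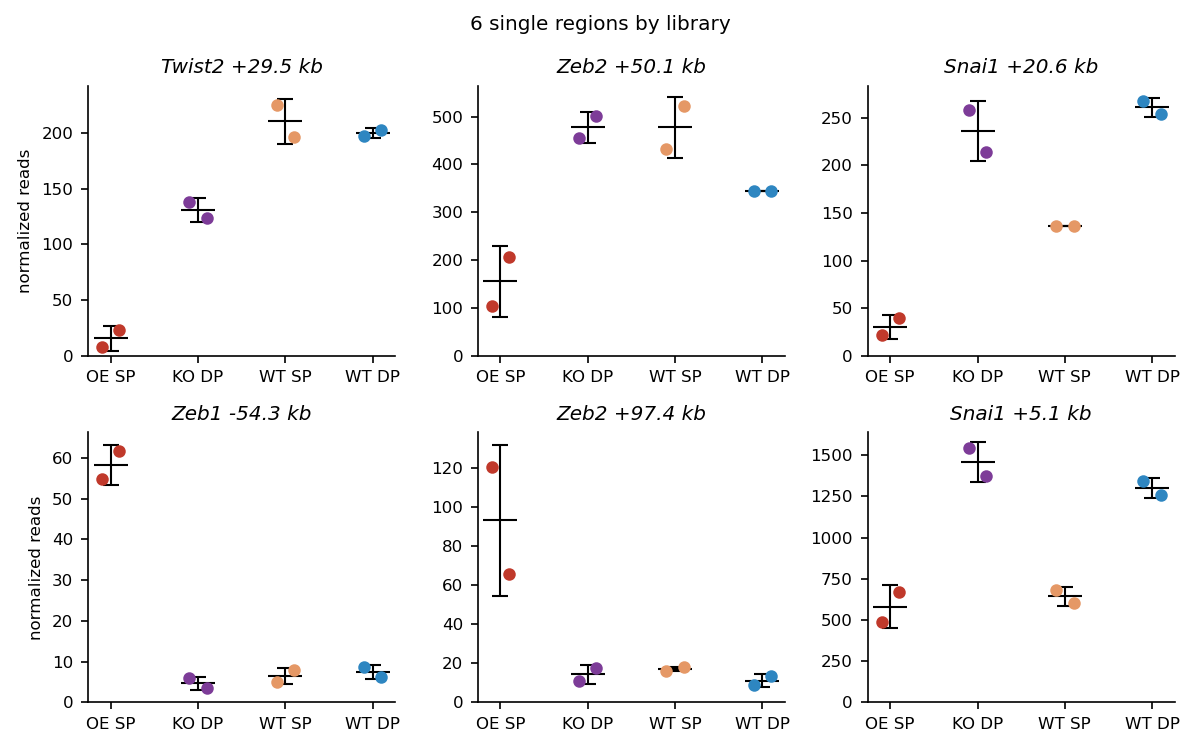
Normalized reads of 6 single regions in each of the 8 libraries (points), with the mean and SD of each group of 2 (bars), each panel named by its gene and the distance from the start or, for Zeb1, the lower-coordinate end of the gene. OE SP is the lowest group at 29.5 kb in Twist2, 50.1 kb in Zeb2 and 20.6 kb from Snai1, the highest near Zeb1 and at 97.4 kb in Zeb2, and overlaps WT SP at 5.1 kb from Snai1, where both lie below KO DP and WT DP.

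Between WT SP and WT DP, the comparison of sorted fractions of 1 wild-type line, 6 of the 102 member regions were called higher and 9 lower, where 6.2% of all regions were called higher and 8.12% lower. These shares, 5.88% and 8.82%, were near those of all regions. Scaling on the 10000 highest regions gave 2 higher and 13 lower, where 4.30% of all regions were called higher and 12.4% lower. Leaving out any 1 library leaves 1 in its group, and fewer members and fewer of all regions were then called in both directions. The 9 lower regions lay at Zeb2 (4), Snai1 (3), Zeb1 (1) and Snai2 (1), and the 6 higher ones at Zeb2 (5) and Zeb1 (1). The 4 called lower under every setting that included them were 2 at Snai1 and 2 at Zeb2. None of the 6 higher regions was called under every setting that included it. Twist1 and Twist2 had no called region by limma or edgeR, with 0 and 2 at an unadjusted p below 0.05.

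At Snai1, the region just beyond the end of the gene, 5.1 kb from the start (chr2:167543064-167543464), was its region of highest mean. It had 489 and 673 normalized reads in OE SP, 1546 and 1373 in KO DP, 684 and 604 in WT SP, and 1344 and 1257 in WT DP. The single positive libraries of both lines overlapped and lay below both double positive groups, with a log2 change of WT SP from WT DP of -1.01 (SE 0.17, adjusted p = 0.0025). OE SP did not pass the test against WT SP there (log2 -0.16, adjusted p = 0.449). At 25.8 kb (chr2:167563768-167564168) the values were 38.7 and 42.0 in OE SP, 199 and 170 in KO DP, 68.2 and 63.4 in WT SP, and 223 and 216 in WT DP. WT SP fell by 1.67 on the log2 scale from WT DP (SE 0.18, adjusted p = 0.000318), and OE SP fell by 0.64 from WT SP (SE 0.18, adjusted p = 0.0106), a call lost without WT SP replicate 1 (adjusted p = 0.0768).

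Both stable falls at Zeb2 lay inside the gene. The region at 117.4 kb (chr2:44999863-45000263) had 17.5 and 19.7 normalized reads in OE SP, 131 and 112 in KO DP, 23.4 and 33.7 in WT SP, and 108 and 116 in WT DP. It was low in both single positive groups and high in both double positive groups, and WT SP fell by 1.82 on the log2 scale from WT DP (SE 0.22, adjusted p = 0.000545). The region at 78.9 kb (chr2:45038371-45038771) had 7.29 and 5.26 in OE SP, 68.8 and 79.6 in KO DP, 20.4 and 23.8 in WT SP, and 78.6 and 68.3 in WT DP, with a log2 change of WT SP from WT DP of -1.53 (SE 0.23, adjusted p = 0.00155). The opposite pattern was seen at 148.1 kb (chr2:44969185-44969585), with 26.3 and 35.5 in OE SP, 10.1 and 13.1 in KO DP, 36.6 and 33.7 in WT SP, and 6.80 and 11.7 in WT DP, a log2 change of 1.52 (SE 0.27, adjusted p = 0.00411). That call was lost without WT SP replicate 1 or WT DP replicate 1 (highest adjusted p = 0.0595). The region at 22.3 kb (chr2:45094893-45095293) had 9.48 and 11.8 in OE SP, 118 and 131 in KO DP, 33.6 and 35.7 in WT SP, and 71.8 and 82.6 in WT DP, in that order without overlap for OE SP, WT SP and WT DP. OE SP fell by 1.34 on the log2 scale from WT SP (SE 0.21, adjusted p = 0.000287), and WT SP fell by 1.05 from WT DP (SE 0.21, adjusted p = 0.00696), the second call being lost without any 1 of its 4 libraries (highest adjusted p = 0.091).

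Fewer calls between WT SP and WT DP lay at Zeb1 and Snai2. Inside Zeb1, the region at 30.9 kb (chr18:5622067-5622467) had 9.48 and 6.57 normalized reads in OE SP, 53.7 and 40.4 in KO DP, 22.4 and 14.9 in WT SP, and 44.7 and 51.2 in WT DP, with a log2 change of WT SP from WT DP of -1.18 (SE 0.27, adjusted p = 0.0124) that was called only without WT SP replicate 1 when libraries were left out. The region at 117.9 kb (chr18:5709070-5709470) had 8.75 and 18.4 in OE SP, 17.6 and 16.6 in KO DP, 33.6 and 25.8 in WT SP, and 6.80 and 9.88 in WT DP, and its rise in WT SP (log2 1.38, SE 0.30, adjusted p = 0.0114) was lost without any 1 of the 4 libraries. WT SP was the highest group there and the second lowest at 30.9 kb. OE SP was called lower than WT SP at both (log2 -0.85, adjusted p = 0.0188 at 30.9 kb, and -0.94, adjusted p = 0.0223 at 117.9 kb); both calls were lost without WT SP replicate 1, and the second also without OE SP replicate 1 (highest adjusted p = 0.162 and 0.172). The change at 117.9 kb was -0.56 without OE SP replicate 1 and -1.33 without OE SP replicate 2. At the Snai2 region 8.0 kb from the gene end, WT SP fell by 1.09 from WT DP (SE 0.28, adjusted p = 0.0246), a call also lost without any 1 library (highest adjusted p = 0.179).

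**Figure D4:**
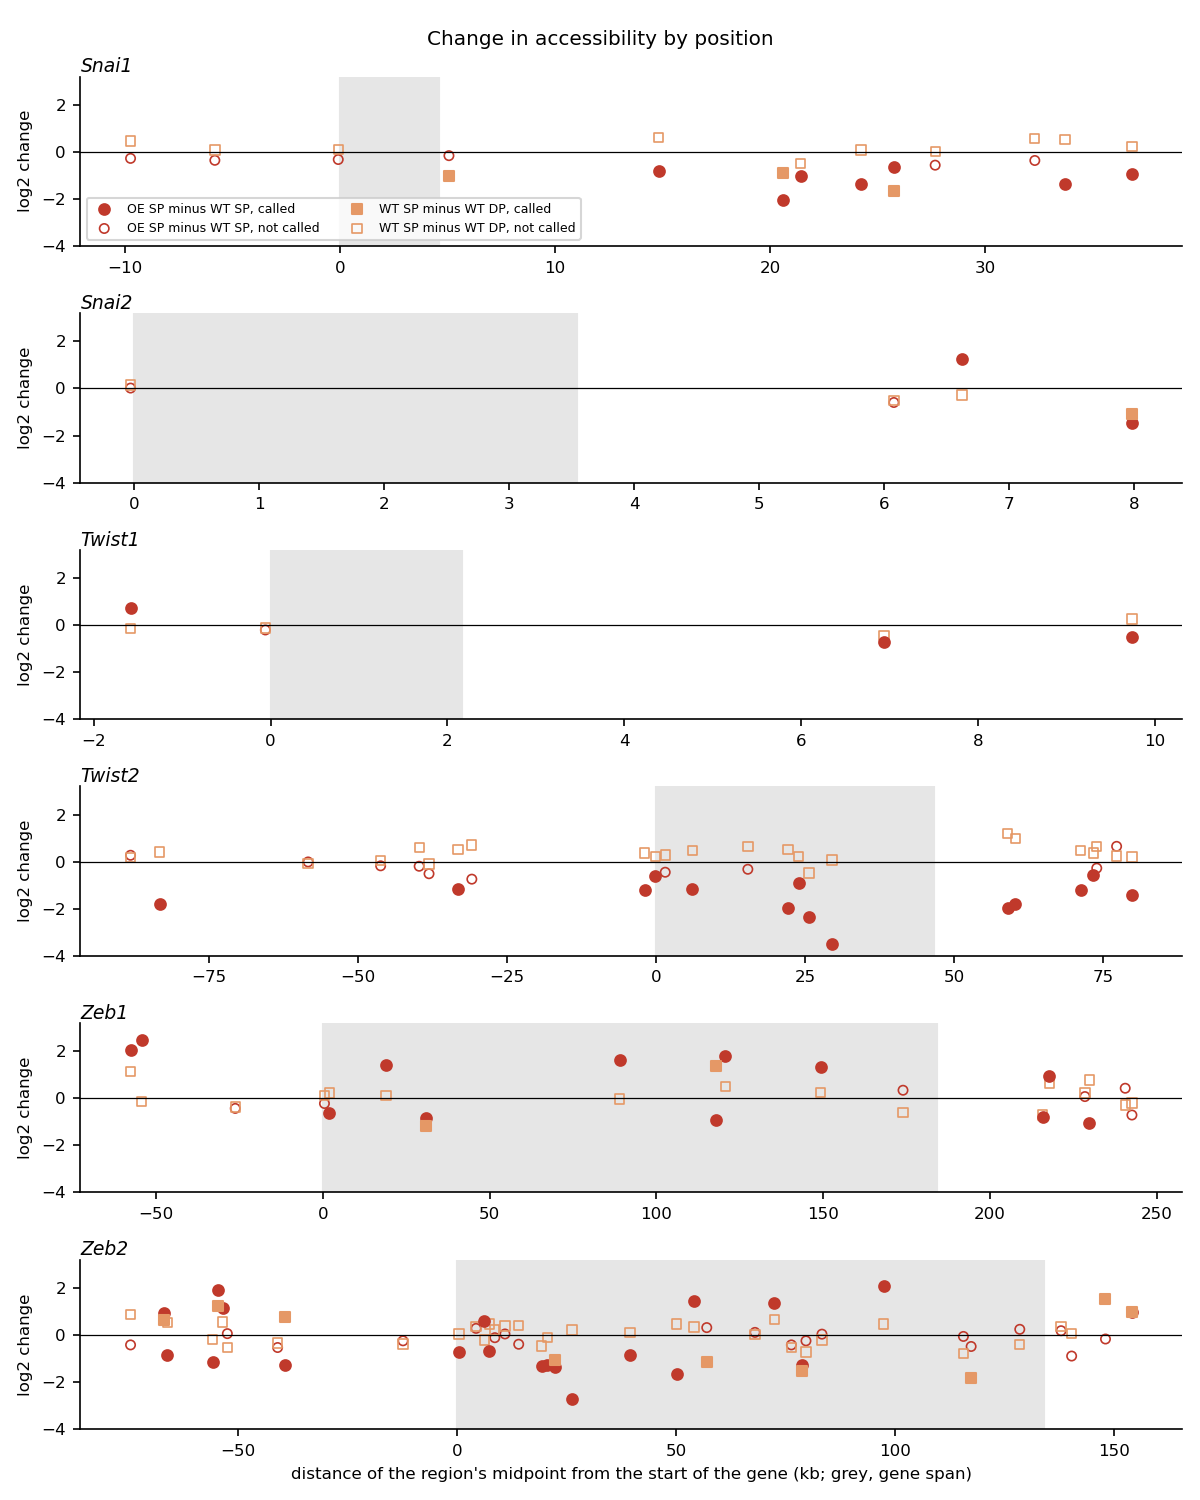
log2 change of each tested region (vertical axis) by the distance of its midpoint from the start of the gene in kb (horizontal axis; for Snai2 and Zeb1, from the lower-coordinate end), for OE SP minus WT SP (red circles) and WT SP minus WT DP (orange squares), filled where called. Filled red circles are below 0 at all called regions of Snai1 and Twist2 but on both sides at Zeb1 and Zeb2.

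Between KO DP and WT DP, 0 of the 102 member regions were called higher and 1 lower by limma, where 1.72% of all regions were called higher and 2.21% lower. At an unadjusted p below 0.05 the counts were 9 and 9. The share of all regions at that threshold was not counted, so these cannot be read against it. By edgeR 3 were called higher, all at Zeb2, and 1 lower, where 3.62% of all regions were called higher and 2.78% lower. The median log2 change was -0.03 over the members and -0.07 over all regions tested. The region called was the one at 25.7 kb in Twist2 (chr1:91826935-91827335), with 52.9 and 58.2 normalized reads in KO DP, against 135 and 135 in WT DP, a log2 change of -1.21 (SE 0.28, adjusted p = 0.0334) that was lost without any 1 of its 4 libraries (highest adjusted p = 0.241). At Snai1 the 2 regions that separated WT SP from WT DP most clearly were not called in KO DP, with log2 changes of 0.16 (SE 0.17) at 5.1 kb and -0.25 (SE 0.18) at 25.8 kb.

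The position of a region went with its level. The 7 tested regions at promoters or, for genes with no promoter window, at gene ends had a median of 236 normalized reads over the 8 libraries, the 38 others inside genes had 56.7, and the 57 outside had 33.7. By limma, WT SP and KO DP each had 0 of these 7 called against WT DP. Of all regions, 6.2% were called higher and 8.12% lower in WT SP, and 1.72% and 2.21% in KO DP. With 7 regions, 0 calls cannot be told apart from these shares. Between OE SP and WT SP, where 16.6% of all regions were called higher and 31.9% lower, 0 of these 7 were called higher and 2 lower. The counts were 8 and 16 of the 38 inside genes and 9 and 23 of the 57 outside. With 7 promoter or gene-end regions, no difference from the other positions can be read from these counts. Both OE SP libraries were below the other 6 in 36 of the 102 regions, where this held for 31.1% of all regions, and above them in 19, where it held for 21.4%. Both WT SP libraries were above the other 6 in 17 regions (14% of all regions), 8 of them at Twist2, and below them in 4 (2.31% of all regions). Both KO DP libraries were above the other 6 in 11 regions (9.92% of all regions), 7 of them at Zeb2, and below them in 8 (13.3%).

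The partners of these factors were described from lists of genes of the same process. The 14 epithelial genes with a region, out of 15, had 148 tested regions, of which 27 (18.2%) were called higher and 44 (29.7%) lower in OE SP from WT SP, near the 16.6% and 31.9% of all regions. Esrp1, a splicing regulator of epithelial cells, had a region (chr4:11404031-11404431) with 266 and 267 normalized reads in OE SP and 53.9 and 54.5 in WT SP, a log2 change of 2.20 (SE 0.26, adjusted p = 4.83e-05). Grhl2, an activator of epithelial genes, had one (chr15:37138253-37138653) with 9.48 and 9.20 in OE SP and 74.3 and 72.4 in WT SP (log2 -2.45, SE 0.21, adjusted p = 8.18e-06). The median log2 change over the epithelial regions was -0.19, against -0.22 over all regions. Of 185 regions at the 11 mesenchymal genes, 27 (14.6%) were called higher and 73 (39.5%) lower in OE SP, with a median of -0.38. Cdh2, which encodes N-cadherin, gave 24 of these 73 lower regions, with 4 higher among its 41 regions. Mmp2 had 3 lower and 2 higher of 13 regions, and Mmp14 had 1 lower and 0 higher of 5. Of 257 regions at 17 upstream genes of the gastrulation transition, 23 (8.95%) were called higher and 131 (51.0%) lower, with a median of -0.63. Wnt3, a signal of the primitive streak, had 9 lower of 11 regions, among them one (chr11:103804639-103805039) with 15.3 and 15.8 in OE SP and 177 and 147 in WT SP. Of 190 regions at 10 partner and other transition factors, 33 (17.4%) were called higher and 70 (36.8%) lower, with a median of -0.38. Tcf4, which encodes an E-protein, gave 20 of these 33 higher regions, with 15 lower among its 60 regions. Id3 had 2 higher and 9 lower of 17 regions, and Hmga2 had 4 higher and 26 lower of 46.

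Between WT SP and WT DP, where 6.2% of all regions were called higher and 8.12% lower, the shares were 7.43% and 5.41% of the 148 epithelial regions, 6.49% and 11.9% of the 185 mesenchymal, 6.61% and 10.9% of the 257 upstream, and 9.47% and 5.26% of the 190 partner factor regions. In KO DP from WT DP, where 1.72% of all regions were called higher and 2.21% lower, the shares were 0.676% and 1.35% for epithelial and 2.16% and 2.70% for mesenchymal regions. Of the 257 upstream regions 4 were called higher and 9 lower, and 3.16% of partner factor regions were called lower. Of the 27 tested regions of Cdh1, which encodes E-cadherin and is a known target of SNAI and ZEB repression, 1 was called lower in KO DP. This region (chr8:106674955-106675355) had 18.5 and 16.6 normalized reads in KO DP, against 59.2 and 55.7 in WT DP, a log2 change of -1.47 (SE 0.21, adjusted p = 0.00286). Ovol2, of the same list, had 1 region called higher and 1 lower of 11. The region called higher (chr2:144310278-144310678) had 102 and 82.0 in KO DP, against 36.9 and 35.0 in WT DP (log2 1.24, SE 0.25, adjusted p = 0.0179). The part of SNAI or ZEB factors in these calls was not tested.

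The marker lists of other cells were read in the same comparison of OE SP with WT SP, where 16.6% of all regions were called higher and 31.9% lower. Of the 5 fibroblast feeder genes with a region (Col1a1, Col1a2, Thy1, Postn and Dcn), out of 6 on the list, the summed signal was 2564 to 3649 in OE SP, 4059 to 4265 in KO DP, 4751 to 4837 in WT SP and 3920 to 3928 in WT DP, and 4 (6.90%) of their 58 tested regions were called higher and 27 (46.6%) lower in OE SP. Lum had no region. Of the 89 endothelial regions, 33.7% were called higher and 20.2% lower in OE SP, and of the 33 blood regions at Tal1, Gata1, Lmo2 and Itga2b, 39.4% and 27.3%. Of the 23 paraxial mesoderm regions, 8.70% were called higher and 52.2% lower, and of the 22 regions at the pluripotency genes Pou5f1, Nanog and Zfp42, 22.7% and 36.4%. The part of these cells in the changes at Twist2, Snai1, Zeb1 and Zeb2 was not tested.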

How the data were processed

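ATAC-seq was measured in 8 libraries of 4 groups. The deposited table gives 1 signal value per region and library, normalized reads by its name. The submitters' processing notes name mm10, DiffBind 3.14.1, MACS2 and Bowtie2, listed with no role for any. For the scaling, any Tn5 shift, duplicates and peak merging, no method is given in the sources used here. The scaling moves the balance of rises and falls, so other scalings were tried. In the deposited values, 100% were whole multiples of a library's step within 0.01 reads, so whole reads were recovered for edgeR; in WT SP replicate 2 that step is close to 1. Of all regions, edgeR called 41125 higher and 41344 lower in OE SP from WT SP.

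The test was limma 3.58.1 (R 4.3.3) on log2(value + 5) for regions with a mean of at least 10, with 4 group means over all 8 libraries, an empirical Bayes trend and two-sided p-values adjusted by Benjamini-Hochberg. Log2 changes on this scale understate those of low regions. Gene sums were tested likewise. Alternatives were median-of-ratios scaling, scaling on the 10000 highest regions, a pseudocount of 1, no filter, a mean of at least 30, edgeR 4.0.16 quasi-likelihood on recovered reads, a replicate block, the compared groups alone, regions within 10 kb, and leaving out each library. Comparisons share libraries: WT DP serves in 2 of them, and WT SP in 2. Counting precision is that of reads, not molecules, as no identifiers are given. Gene spans came from RefSeq (GRCm38.p6); distances at Zeb2 follow its minus strand. All 6 genes are named. By value, the rule names each gene's region of highest mean, regions that overlap its promoter window or, where none is given, lie within 1 kb of the gene end, and up to 4 called regions of lowest adjusted p per comparison; of the gene lists, up to 3 genes each. The members, lists and rules were chosen with earlier results of these data known.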

Additional observations from a re-analysis of the deposited data

How the results depend on the processing

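Member region counts moved as follows. WT SP higher than WT DP (6) gave 2 under scaling on the 10000 highest regions, 2 at a mean of at least 30, 1 within 10 kb, 23 with the compared groups alone, and 0 to 2 without a library; lower (9) gave 17 with the compared groups alone and 4 to 5 without a library. KO DP higher than WT DP (0) gave 1 under median-of-ratios scaling, 2 on the 10000 highest regions, 3 by edgeR and 14 with the compared groups alone; lower (1) gave 0 at a pseudocount of 1, 12 with the compared groups alone and 0 to 1 without a library. OE SP higher than WT SP (17) gave 10 within 10 kb, 10 at a mean of at least 30 and 13 to 19 without a library; lower (41) gave 22 within 10 kb and 24 to 52 without a library. Regions that differed among the 4 groups (73) were 41 within 10 kb, 47 at a mean of at least 30 and 54 to 86 without a library. Fewer regions are tested within 10 kb and at a mean of at least 30. The shares of all regions also moved with the setting. With the compared groups alone, 22.4% of all regions were called higher and 15.5% lower in WT SP from WT DP, against 6.2% and 8.12% in the main fit. In KO DP from WT DP these shares were 8.89% and 13.1%, against 1.72% and 2.21%. The cause of these shifts was not tested. Called gene sums (2 of 18 tests) were 5 under median-of-ratios scaling, 6 on the 10000 highest regions, 6 by edgeR, 8 with the compared groups alone and 1 to 3 without a library. The Twist1 gene sum in OE SP turned from -0.02 to 0.22 under median-of-ratios scaling. That scaling moved the median log2 change of all regions in OE SP from -0.22 to -0.00.

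Libraries with the same replicate number had little shared deviation, with correlations of deviations from -0.00 to 0.06 between groups. This cannot tell whether they were prepared together. With the replicate block, OE SP had 17 member regions called higher and 40 lower, KO DP had 0 and 1, and WT SP had 8 and 9; 72 differed among the groups and 2 gene sums were called.

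With 2 libraries a group and a median of 27 to 42 reads per region, small changes at low regions could not be called.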
